A study of Mus musculus with 18 samples.

Results

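Bone marrow-derived mast cells of mouse were compared between Sirt6 KO and WT cells without treatment, in the 6 libraries that the labels put at level 0 of the series' 18. They were chosen as the read count columns labelled KO or WT at 0, with 3 libraries in each genotype, numbered 4120, 414 and 6110 in both. The KO cells carried Sirt6 flox/flox alleles together with LysM-Cre, a Cre recombinase expressed from the lysozyme M locus, which is active in cells of the myeloid lineage. The WT cells carried the same Sirt6 flox/flox alleles and no Cre is named for them. The labels name no treatment at 0. The other 12 libraries are at levels 20 and 60 of a unit that is not given. They serve here only to estimate the spread and to follow the genes found at 0. That estimate takes all 18 libraries as independent, although those of the same number and genotype may belong together. The cells were grown in culture from marrow of the hind leg bones, and total RNA was the input of mRNA libraries. No label says what a number stands for, such as an animal or a culture; p-values therefore measure only how these samples spread, and some of that spread may be technical. Values by library are given in the order 4120, 414, 6110.

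SIRT6 is a nuclear enzyme that uses NAD to remove acetyl and longer acyl groups from histone H3 and other proteins. It is known for silencing genes of glycolysis driven by HIF1A, genes of lipid synthesis and NF-kB targets, and for work in the repair of DNA breaks. Mast cells are granulated cells of the myeloid lineage that depend on the receptor KIT and carry the high affinity IgE receptor, FcεRI, through which antigen triggers the release of granules and the synthesis of lipid mediators and cytokines. Bone marrow-derived mast cells are the standard culture model of these cells.

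The libraries held 29072879, 26435573 and 36473450 counts in KO, against 20026054, 26110463 and 31624540 counts in WT, so that a count of 3 was worth 0.0688 to 0.185 CPM (read counts scaled to a common library size after TMM normalization). The WT library of number 4120 stood apart. It had the fewest counts and the highest mitochondrial share, and lay at −112 on the first principal component of the 6 libraries, which held 42.6% of the variance, where the other 5 lay between −16.9 and 75.5. Number 414 differed from the other 2 in both genotypes in transcripts of the sex chromosomes: Xist, the RNA of the inactive X chromosome, had 0.885, 849 and 0.207 CPM in KO, against 0.861, 2297 and 0.219 CPM in WT. All 13 mast cell markers had counts in every library, among them Kit with 2411, 2356 and 2653 CPM in KO, against 950.0, 1446 and 1654 CPM in WT, and their summed level was 28910.0, 42225 and 41113 CPM in KO, against 18861, 23612 and 52117 CPM in WT. In bulk RNA, fewer cells of a type and less RNA per cell cannot be told apart.

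Transcripts of mitochondrial DNA took between 4.09% and 39.1% of a library's counts. The share was 10.2%, 27.2% and 4.09% in KO, against 39.1%, 17.8% and 11.1% in WT. Each genotype thus had libraries with a high and with a low share and the groups overlapped, with 13.8% ± 11.95 in KO and 22.7% ± 14.6 in WT (SD, n = 3 each). The mean log2 share differed by −0.92 (two-sided exact permutation test, p = 0.4, where 3 against 3 libraries allow no p below 0.1). Within numbers the log2 share of KO minus that of WT was −1.94 for number 4120, 0.61 for number 414 and −1.44 for number 6110, so KO had the lower share in 2 of 3 numbers. Without the WT library of number 4120 the difference was −0.43 (exact p = 0.7), and without the KO library of number 6110 it was −0.25 (exact p = 0.8). Without the KO library of number 414 it was −1.61, the largest with 1 library left out. The KO shares left then lay below every WT share, so the overlap of the groups rested on that library. Measured on deposited TPM, which are scaled by gene length, the share was 17.5%, 39.0% and 7.91% in KO, against 55.8%, 30.1% and 17.9% in WT.

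**Figure D1:**
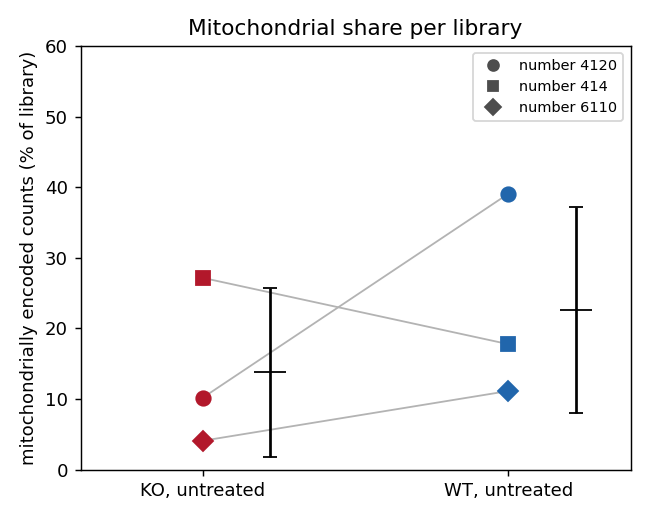
Share of mitochondrially encoded counts in the 6 untreated libraries (vertical axis, percent of the counts of a library), with KO on the left and WT on the right; symbols mark the number of the library, grey lines join libraries of the same number, and black bars give the mean and SD of 3 libraries. The KO libraries lie at 10.2%, 27.2% and 4.09% and overlap with the WT libraries at 39.1%, 17.8% and 11.1%.

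All 37 genes of the mitochondrial chromosome had counts. COX1, the catalytic subunit of cytochrome oxidase, alone took 4.75, 12.7 and 1.74% in KO, against 17.9, 8.71 and 4.52% in WT, as a share of all counts. Within the mitochondrial counts COX1 held a much steadier part, 46.6, 46.6 and 42.6% in KO, against 45.8, 49.0 and 40.6% in WT. CYTB, the cytochrome b subunit of complex III, took 0.793, 1.89 and 0.339% in KO, against 3.38, 1.27 and 1.01% in WT. The 2 ribosomal RNAs took 0.511, 1.62 and 0.185% in KO, against 1.84, 0.840 and 0.546% in WT for mt-Rnr2, the large one, and 0.483, 1.31 and 0.108% in KO, against 1.498, 0.631 and 0.319% in WT for mt-Rnr1, the small one. The 22 transfer RNAs summed to 0.0463%, 0.142% and 0.0234% in KO, against 0.155%, 0.0853% and 0.0665% in WT, which leaves 10.1%, 27.0% and 4.07% in KO, against 38.9%, 17.7% and 11.1% in WT, to the 13 protein and 2 ribosomal RNA genes.

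All 37 mitochondrial genes had negative log2 fold changes, and 0 passed edgeR's test, adjusted or at an unadjusted p under 0.05. Among the protein genes the log2 fold change was −0.88 for ND1, −1.02 for ND2, −1.01 for ND3, −0.97 for ND4, −1.09 for ND4L, −0.93 for ND5 and −0.74 for ND6, all subunits of complex I. It was −1.06 for CYTB, −0.82 for COX1, −0.84 for COX2, −1.02 for COX3, −0.72 for ATP6 and −0.69 for ATP8, the last a pair of ATP synthase subunits, and −0.49 and −0.59 for mt-Rnr1 and mt-Rnr2. The shared sign did not hold over the libraries. Without the WT library of number 4120, 18 of the 37 were negative, and the median of the 13 protein genes was −0.01 in place of −0.93. Without the KO library of number 414 that median was −2.065.

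The targeted gene does not check the genotype labels in these counts. Sirt6 had 18.7, 13.7 and 17.7 CPM in KO, against 11.99, 14.9 and 16.8 CPM in WT, and the groups overlapped (log2 fold change 0.19 ± 0.22 SE, edgeR adjusted p = 0.740; two-sided exact permutation p = 0.4). The counts are totals over the gene and no source used here names the exons between the loxP sites, so transcript left outside them is counted too. Lyz2, which encodes the lysozyme M whose locus drives the Cre, had 3, 6 and 0 counts in KO, against 60, 23 and 73 counts in WT, or 0.0857, 0.249 and 0 CPM in KO, against 3.69, 0.772 and 2.29 CPM in WT. The groups did not overlap, at levels that were low in both (log2 fold change −4.44 ± 1.03 SE, edgeR adjusted p = 0.101; two-sided exact permutation p = 0.1, the smallest that this design allows).

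Which transcripts differed between KO and WT before any stimulus was the question of the comparison. Among protein-coding genes that fell, the interferon-inducible GTPase Gbp2b had 0 counts in KO, against 629 counts in WT, the adhesion molecule Nectin1 had 29 counts in KO, against 956 counts in WT, and the predicted gene Gm42048 had 55 counts in KO, against 24464 counts in WT. The adducin subunit Add2, the receptor-like kinase Styk1 and the GTPase-activating protein Tagap1 kept counts in KO and were also much lower. In the other direction the collagen VI chain Col6a3, the neurexophilin family member Nxpe2 and the potassium channel Kcnh6 averaged 131, 10.5 and 22.1 CPM in KO, against 1.73, 0.209 and 1.26 CPM in WT. At a Benjamini-Hochberg adjusted p under 0.05, which is what called means here, edgeR's quasi-likelihood test called 47 of 17159 genes, a share of 0.274%, with 17 higher (0.0991%) and 30 lower (0.175%) in KO. At an unadjusted p under 0.05 the share was 12.1%. All 47 had KO and WT ranges that did not overlap, which 13.1% of all tested genes had (5.94% higher and 7.14% lower in KO). Of the 47, 34 had an absolute log2 fold change of at least 2, and the smallest was 0.999, that of Fancl. Over all tested genes the median log2 fold change was 0.0062 and 50.5% of values were positive.

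The count of calls rested on individual libraries. It was 30 without the WT library of number 4120, 27 without the KO library of number 414 and 28 without the KO library of number 6110, and between 32 and 46 without any of the other 3. All 47 genes kept their sign in each of these 6 fits, and 21 were called in all 6. These were the rises of Col6a3, Nxpe2, Gm9008 and Clba1 and 17 of the falls. With both libraries of a number left out, 18 of the 47 were called without 4120, 16 without 414 and 23 without 6110. The 11 genes called in all of these 9 fits were Gm9008, a rise, and the falls of Add2, Nectin1, Gm42048, Tagap1, Rpl34-ps1, Rps3a3, Gm9522, Gm10154, Gm5900 and Gm4705. A fit of the 6 untreated libraries alone called 19 of 15285 genes (0.124%), among them 18 of the 47, which were the rises of Col6a3 and Gm9008 and 16 falls. DESeq2 called 244 genes (1.38%), which include all 47. With the log2 mitochondrial share of each library as a covariate 64 genes were called.

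**Figure D2:**
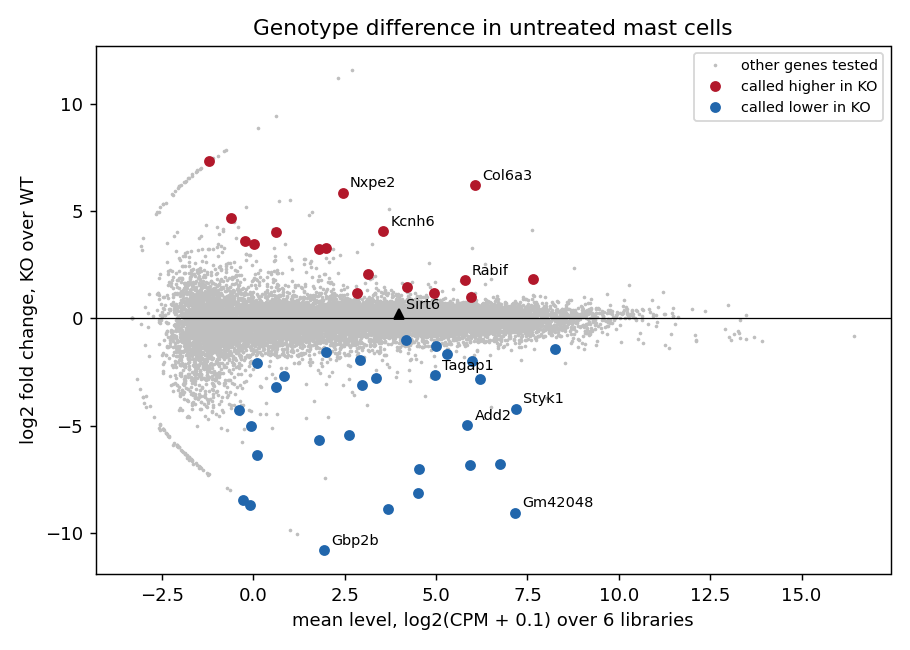
Mean level over the 6 untreated libraries (horizontal axis, log2(CPM + 0.1)) against the log2 fold change of KO over WT (vertical axis) for 17159 tested genes; red points are the 17 genes called higher in KO, blue points the 30 called lower, and the black triangle is Sirt6. Most genes lie around 0, and Col6a3 at 6.20 and Gbp2b at −10.80 lie far from them.

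The bases just before the annotated start are shown for 2 rises, Col6a3 and Nxpe2, and 2 falls, Gbp2b and Add2. They had the largest changes among the called protein-coding genes that averaged 5 CPM or more in either genotype and have an entry shown here; the limit of 5 CPM was applied to this choice with the values in view, and Clec12b, Map9, Tescl and Ppm1n, under it, fell further than Add2. They are 250 bases of RefSeq's GRCm38.p6, 5′ to 3′ on the strand of the gene, and the capitals mark the 40 bases nearest to the start. The start is the one RefSeq's promoter table gives, which for Col6a3, Nxpe2 and Gbp2b lies inside the span of the gene given with its values. Col6a3 is chr1:90843972-90844221, − strand. Nxpe2 is chr9:48340899-48341148, − strand. Gbp2b is chr3:142594597-142594846, + strand. Add2 is chr6:86028431-86028680, + strand. The promoter of Gm42048 is not shown here, and Nectin1 and Styk1 have no entry in the table used.
Col6a3: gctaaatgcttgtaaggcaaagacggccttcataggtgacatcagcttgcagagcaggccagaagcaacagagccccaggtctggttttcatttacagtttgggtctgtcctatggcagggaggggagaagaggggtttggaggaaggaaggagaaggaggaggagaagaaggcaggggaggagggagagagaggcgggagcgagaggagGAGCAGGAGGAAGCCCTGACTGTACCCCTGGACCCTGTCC
Nxpe2: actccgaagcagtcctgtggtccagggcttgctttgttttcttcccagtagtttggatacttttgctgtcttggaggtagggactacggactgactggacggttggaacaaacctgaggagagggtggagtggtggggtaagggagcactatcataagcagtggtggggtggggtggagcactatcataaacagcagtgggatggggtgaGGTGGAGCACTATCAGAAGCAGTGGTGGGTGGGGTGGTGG
Gbp2b: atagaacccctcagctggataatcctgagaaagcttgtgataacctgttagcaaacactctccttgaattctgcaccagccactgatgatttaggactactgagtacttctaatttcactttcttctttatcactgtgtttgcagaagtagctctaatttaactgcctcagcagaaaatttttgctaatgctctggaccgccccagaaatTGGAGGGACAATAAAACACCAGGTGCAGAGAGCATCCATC
Add2: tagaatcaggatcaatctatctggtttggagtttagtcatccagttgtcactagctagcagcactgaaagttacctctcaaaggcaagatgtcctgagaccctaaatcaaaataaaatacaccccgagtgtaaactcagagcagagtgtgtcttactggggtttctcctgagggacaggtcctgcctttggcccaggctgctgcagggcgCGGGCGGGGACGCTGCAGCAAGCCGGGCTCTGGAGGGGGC

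The motif AGATAA, a form of the site bound by GATA factors, which include the mast cell factor GATA2, was searched on both strands of the window that runs 250 bases before to 50 bases after each start. It is in none of these 4 windows. Of the 30 promoter entries of the 28 called genes found in the table, 2 hold it (6.67%), against 3672 of all 32851 entries (11.2%).

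Among the called protein-coding genes that averaged 5 CPM or more, Col6a3, Nxpe2 and Kcnh6 rose most. Col6a3, a chain of the extracellular collagen VI (gene ID 12835, chromosome 1, 90766860 to 90844001 in GRCm38), had 224, 111 and 58.4 CPM in KO, against 0.984, 2.65 and 1.57 CPM in WT. The lowest KO library was far above the highest WT library, although the KO libraries differed among themselves (means of 131 ± 84.7 CPM for KO and 1.73 ± 0.846 CPM for WT, SD, n = 3 each; log2 fold change 6.20 ± 0.78 SE, edgeR adjusted p = 0.000711). Nxpe2, of the neurexophilin and PC-esterase domain family (chromosome 9, 48318003 to 48353449), had 10.3, 13.8 and 7.23 CPM in KO, against 0.492, 0.134 and 0 CPM in WT (log2 fold change 5.87 ± 0.80 SE, edgeR adjusted p = 0.00175). Its WT libraries held 12 counts in all, against 1010 counts in KO, and its annotation overlaps Nxpe4. Kcnh6, a voltage-gated potassium channel of the ether-a-go-go family (chromosome 11, 106008044 to 106035595), had 27.2, 30.2 and 8.77 CPM in KO, against 0.431, 1.28 and 2.07 CPM in WT (4.08 ± 0.68 SE, edgeR adjusted p = 0.0128). Its adjusted p was 0.0895 without the WT library of number 414. Bmpr1a, a type I receptor for bone morphogenetic proteins, had 7.22, 12.9 and 9.50 CPM in KO, against 4.31, 4.23 and 4.48 CPM in WT. The WT libraries of Bmpr1a lay close together and the KO libraries all lay above them (1.19 ± 0.23 SE, edgeR adjusted p = 0.0333, and 0.194 without the KO library of number 414).

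Rabif, Clba1, Hmgn1, Sh3d19, Tanc2 and Dcaf7 were the other protein-coding rises at this level. Rabif, a factor that binds Rab GTPases and frees their nucleotide, had 122, 80.2 and 54.5 CPM in KO, against 25.8, 19.6 and 28.5 CPM in WT (1.79 ± 0.28 SE, edgeR adjusted p = 0.00704, and 0.0610 without the WT library of number 414). Clba1, named for its clathrin binding box, had 12.7, 14.6 and 15.1 CPM in KO, against 3.14, 2.75 and 4.16 CPM in WT. It was called in every fit that left out 1 library, but not without both libraries of number 4120 (adjusted p = 0.0639) or 414 (0.127) and not in the fit of the 6 libraries alone (0.0519) (2.07 ± 0.25 SE, edgeR adjusted p = 0.000559). Hmgn1, a protein that binds nucleosomes and loosens chromatin, had 3.23, 5.03 and 10.03 CPM in KO, against 0.369, 0.638 and 0.877 CPM in WT (3.24 ± 0.52 SE, edgeR adjusted p = 0.00949, and 0.0732 without the WT library of number 4120). Hmgn1 has processed copies in the genome, so its value is uncertain. Sh3d19, an adaptor with SH3 domains, had 38.7, 34.7 and 53.1 CPM in KO, against 16.1, 21.99 and 17.8 CPM in WT. Tanc2, a scaffold protein with ankyrin repeats, had 24.3, 27.4 and 30.04 CPM in KO, against 8.73, 7.72 and 12.7 CPM in WT, and Dcaf7, a receptor subunit of CUL4 ubiquitin ligases, had 64.1, 92.4 and 94.1 CPM in KO, against 32.2, 43.7 and 47.3 CPM in WT. None of these 3 had overlapping groups; their log2 fold changes were 1.18 for Sh3d19, 1.48 for Tanc2 and 1.02 for Dcaf7, with SE of 0.20, 0.28 and 0.20 and edgeR adjusted p of 0.0164, 0.0289 and 0.0334. With 1 library left out their highest adjusted p was 0.102 for Sh3d19 without the KO library of number 6110, 0.152 for Tanc2 without the WT library of number 414 and 0.207 for Dcaf7 without the KO library of number 414.

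Among the falls, Gbp2b (gene ID 14468, chromosome 3, 142594816 to 142619179) had no count in any KO library. In WT it had 4.80, 3.52 and 13.96 CPM, so KO was at least 276-fold lower with 3 counts over the 3 KO libraries as the floor (edgeR adjusted p = 0.000796). Gbp2b belongs to the guanylate binding proteins, GTPases that interferons induce and that attack intracellular pathogens; its relatives on the same chromosome are close copies, so reads may be shared between them. Gbp2, its neighbour, had 10.5, 13.9 and 27.5 CPM in KO, against 3.44, 5.44 and 10.05 CPM in WT, which did not pass the test (1.45, edgeR adjusted p = 0.228). Gbp9 had 19.5, 18.8 and 35.1 CPM in KO, against 119, 77.1 and 55.8 CPM in WT (−1.78, edgeR adjusted p = 0.0538), Gbp4 had −1.71 and Gbp6 had −1.13 on the log2 scale, at edgeR adjusted p of 0.253 and 0.223. Gbp2, Gbp4, Gbp6 and Gbp9 were chosen after their values were seen, and the family thus showed values of both signs, with Gbp2b alone called.

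Add2, the beta subunit of adducin, which joins spectrin to actin under the membrane (chromosome 6, 86028681 to 86124409), had 1.88, 2.25 and 6.33 CPM in KO, against 92.1, 134 and 109 CPM in WT. The groups were well apart, with means of 3.49 ± 2.47 CPM for KO and 112 ± 21.1 CPM for WT (SD, n = 3 each; log2 fold change −4.99 ± 0.50 SE, edgeR adjusted p = 8.61e-05). Nectin1, an adhesion molecule of the immunoglobulin superfamily, had 0.171, 0.166 and 0.436 CPM in KO, against 9.66, 7.59 and 17.9 CPM in WT (−5.43 ± 0.61 SE, edgeR adjusted p = 0.000232), and its annotation overlaps Gm30015 and Gm46108. Styk1, a receptor-like protein kinase (chromosome 6, 131299133 to 131353836), had 16.8, 17.4 and 10.9 CPM in KO, against 125, 465 and 242 CPM in WT. The WT libraries of Styk1 varied widely, with the lowest in number 4120, and the KO libraries were all below it (−4.21 ± 0.51 SE, edgeR adjusted p = 0.000519). Gm42048, a predicted protein-coding gene (chromosome 8, 121833991 to 121843902), had 0.828, 0.374 and 0.390 CPM in KO, against 124, 492 and 244 CPM in WT (−9.05 ± 0.76 SE, edgeR adjusted p = 8.34e-06). Add2, Nectin1, Styk1, Gm42048 and Gbp2b were called in every fit that left out a library.

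**Figure D3:**
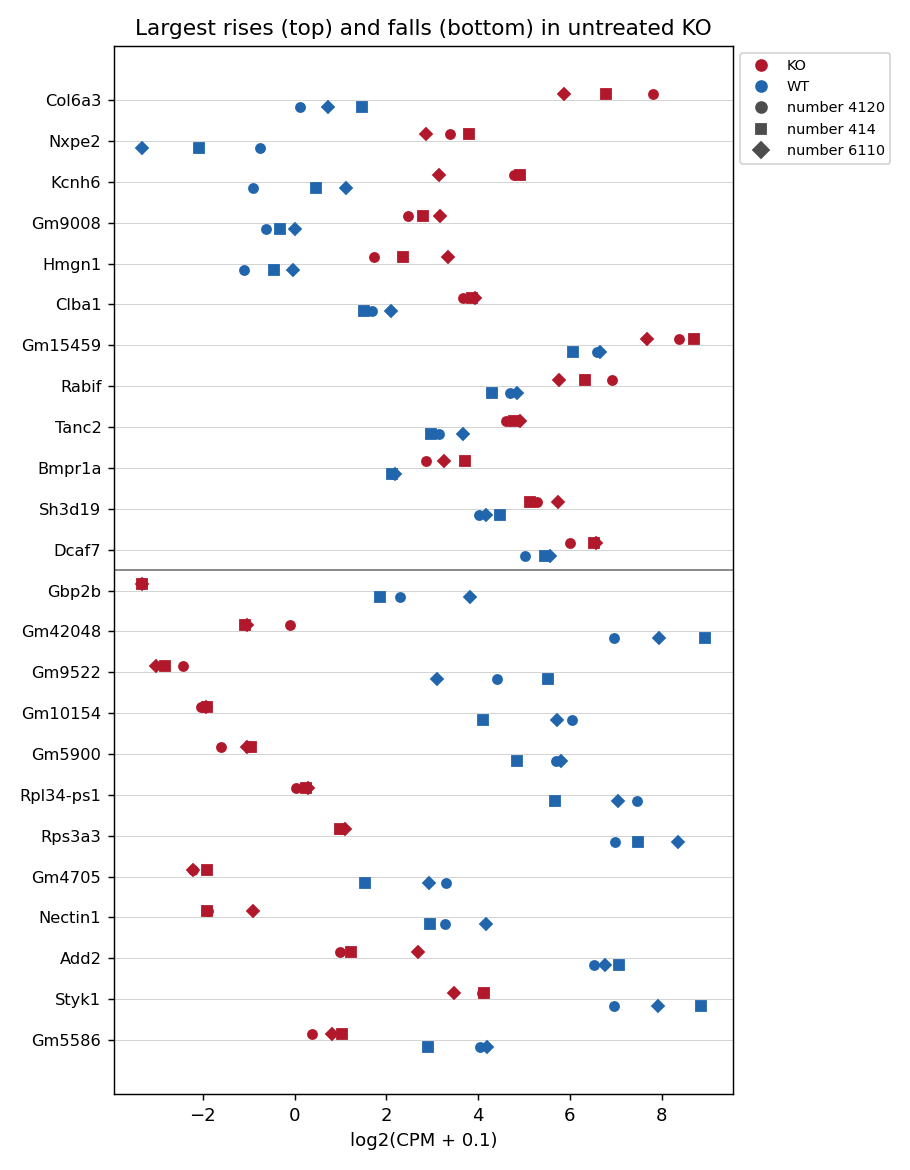
Level of the 12 largest rises (above the line) and 12 largest falls (below it) among called genes that averaged 5 CPM or more in either genotype, as log2(CPM + 0.1) on the horizontal axis; red points are KO, drawn above the blue WT points of the same gene, and symbols mark the number of the library. In none of the 24 genes do KO and WT points overlap, and Gbp2b has no count in any KO library.

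Apart from Rpl34-ps1, which is given with its parent gene, the remaining protein-coding falls at 5 CPM or more were smaller than that of Styk1. Tagap1, a GTPase-activating protein named from activated T cells, had 7.48, 8.15 and 10.03 CPM in KO, against 72.8, 48.3 and 41.0 CPM in WT (−2.66 ± 0.30 SE, edgeR adjusted p = 0.000220). It has a paralog, Tagap, with which reads may be shared, so its value is uncertain. Chaf1b, the p60 subunit of the factor that assembles histones on new DNA, had 25.2, 30.3 and 21.1 CPM in KO, against 124, 81.3 and 99.8 CPM in WT (−1.998, edgeR adjusted p = 0.0204, and 0.153 without the KO library of number 6110). Lrmp, a membrane protein of the endoplasmic reticulum, was the most abundant called gene, with 225, 150.0 and 121 CPM in KO, against 489, 517 and 339 CPM in WT (−1.44, edgeR adjusted p = 0.0418, and 0.259 without the KO library of number 414). Every KO library of Tagap1, Chaf1b and Lrmp lay below every WT library. Fancl, the ubiquitin ligase of the Fanconi anaemia DNA repair complex, had 12.8, 11.9 and 11.1 CPM in KO, against 26.9, 22.96 and 21.8 CPM in WT (−0.999, edgeR adjusted p = 0.0198, and 0.133 without the KO library of number 6110), and its annotation overlaps Vrk2. The log2 fold change was −1.92 for Dixdc1, a DIX domain protein of Wnt signalling, −2.80 for the olfactory receptor gene Olfr920, −1.56 for 1700010I14Rik and −2.78 for LOC105244150. The last overlaps Nr4a2, an early response gene that had 32.7, 30.6 and 29.9 CPM in KO, against 47.6, 68.4 and 71.4 CPM in WT and did not pass (−1.01, edgeR adjusted p = 0.331). The strand of the libraries is not given, so reads of the 2 genes cannot be told apart. Olfr920 lost its call without the KO library of number 414 (0.0629), and 1700010I14Rik and LOC105244150 had adjusted p up to 0.125 and 0.131 with a library left out, both without the KO library of number 414.

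Several called genes were low in both genotypes. Clec12b, an inhibitory lectin receptor, and Map9, a protein of spindle microtubules, had no count in KO, against 151 counts for Clec12b and 127 counts for Map9 in WT, at least 66.2-fold and 55.7-fold lower. Clec12b overlaps Clec1b, Clec9a and Clec1a, and its adjusted p was 0.153 without the KO library of number 6110, whereas Map9 stayed under the threshold in each such fit. Tescl, a relative of the calcium-binding protein tescalcin, had 2 counts in KO, against 151 counts in WT, and Ppm1n, a putative protein phosphatase, had 5 counts in KO, against 117 counts in WT. Gpr4, a receptor that senses protons, had 28 counts in KO, against 196 counts in WT. The log2 fold change was −6.35 for Tescl, −5.03 for Ppm1n and −3.18 for Gpr4, and all 3 lost their calls without the KO library of number 6110, at 0.0855, 0.153 and 0.0945. Itgam, the integrin alpha chain of neutrophils and macrophages, was the low protein-coding rise, with 101 counts in KO, against 3 counts in WT (4.70, edgeR adjusted p = 0.0334, and 0.137 without the WT library of number 4120). Among long noncoding RNAs 9630028I04Rik rose (4.02, and adjusted p = 0.125 without the KO library of number 414), and Gm34434 (−2.68) and 5033406O09Rik (−1.30, and adjusted p = 0.140 without the KO library of number 414) fell. Unlike the others here, 5033406O09Rik was not low, with 23.9, 17.1 and 14.5 CPM in KO, against 49.8, 39.9 and 46.9 CPM in WT.

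Pseudogenes made up 14 of the 47 called genes (29.8%), 5 higher and 9 lower, and 7.60% of all tested genes. A processed pseudogene is a copy of a messenger RNA written back into the genome, and reads that match its parent as well can be assigned to either, so all of these values are uncertain. The annotated pseudogenes that fell and averaged 5 CPM or more in WT were Gm9522, Gm10154, Gm5900, Rps3a3, Gm4705, Gm5586 and Rps3a2. Gm9522 had 0.0857, 0.0416 and 0.0229 CPM in KO, against 21.3, 45.9 and 8.55 CPM in WT (−8.89), Gm10154 had 0.143, 0.166 and 0.161 CPM in KO, against 65.6, 17.2 and 52.2 CPM in WT (−8.13) and Gm5900 had 0.228, 0.416 and 0.390 CPM in KO, against 52.04, 28.6 and 55.6 CPM in WT (−7.04). Gm4705 had 0.114, 0.166 and 0.115 CPM in KO, against 9.78, 2.79 and 7.48 CPM in WT (−5.65) and Gm5586 had 1.20, 1.95 and 1.65 CPM in KO, against 16.3, 7.35 and 18.2 CPM in WT (−3.12). Each of these 5 was called in every fit that left out a library, and in the KO libraries each except Gm5586 was under 1 CPM. Gm15459, a rise, had 331, 415 and 204 CPM in KO, against 96.3, 67.03 and 100.3 CPM in WT (1.85, edgeR adjusted p = 0.0164, and 0.108 without the WT library of number 414), and Gm9008 had 5.48, 6.82 and 8.86 CPM in KO, against 0.554, 0.705 and 0.908 CPM in WT (3.26, edgeR adjusted p = 0.000187).

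Copies of 2 ribosomal protein genes fell while the parent genes did not pass the test. Rps3a3 had 1.88, 1.87 and 2.04 CPM in KO, against 126, 179 and 329 CPM in WT, and Rps3a2 had 15.6, 24.9 and 16.5 CPM in KO, against 65.9, 37.5 and 76.2 CPM in WT. Rps3a1, which encodes the small-subunit protein itself, had 583, 880.1 and 644 CPM in KO, against 334, 234 and 487 CPM in WT, above WT in every KO library (0.997, edgeR adjusted p = 0.202). Rpl34-ps1, which the annotation names a pseudogene and types as protein coding, had 0.914, 1.08 and 1.12 CPM in KO, against 176, 50.8 and 132 CPM in WT, and Rpl34 had 213, 277 and 329.6 CPM in KO, against 51.9, 107 and 224 CPM in WT (1.10, edgeR adjusted p = 0.441). The copies were lower in every KO library, by 6.77 for Rps3a3, 1.66 for Rps3a2, 6.84 for Rpl34-ps1 and 4.25 for the low Rpl34-ps2 on the log2 scale. Rps3a2 lost its call without the KO library of number 6110 (0.128). Rps3a1 and Rpl34 are given as the parents of these copies and were chosen after the values were seen. The low called pseudogenes left are Gm8750 (3.47), Gm8752 (3.61) and Gm8810, with 64 counts in KO and 0 in WT, at least 16.2-fold higher, all on chromosome 17, and Alms1-ps1 (−2.06), which overlaps Alms1. Gm8810 was called in 0 of the 6 fits that left out a library, Alms1-ps1 in 1, and Gm8750 and Gm8752 in 3 each, with adjusted p up to 0.168, 0.252, 0.112 and 0.0908.

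Of the 47 called genes, 27 (57.4%) started within 5 Mb of another called gene, in 11 segments. Of the tested genes that were not called, 16.7% started within 5 Mb of a called one. These shares are a description, and no test of their difference was made. The medians given for segments include the called genes, which also set the bounds of each segment. A median of the same sign is therefore no added evidence. Tanc2, Kcnh6 and Dcaf7 lay side by side on chromosome 11, from 105589460 to 106059324, were all higher, and were 3 of the 4 tested genes that start there (median 1.25). On chromosome 6, Clec12b and Styk1, both lower, lay from 129375513 to 131353836, and the median log2 fold change of the 9 genes tested there was −1.44. Alms1-ps1 and Add2 on the same chromosome, from 85721923 to 86124409, were also both lower, with a median of −0.40 over 10 tested genes. On chromosome 17, Tagap1 and 1700010I14Rik were both lower (median −0.53 over 16 tested genes), and Gm8750, Gm8752 and Gm8810 all higher in a segment with 37 tested genes and a median of −0.06. Gm5586, Gpr4 and Ppm1n on chromosome 7 were all lower, while the median of the 36 genes tested there was 0.25. Gbp2b and Gm34434 on chromosome 3 were both lower (median −0.17 over 10 tested genes). In the segments of Olfr920, Nectin1, Nxpe2 and Dixdc1 on chromosome 9, of Map9 and Sh3d19 on chromosome 3, of Chaf1b and Hmgn1 on chromosome 16 and of 5033406O09Rik and Clba1 on chromosome 12, called genes of both signs stood together, with medians from −0.51 for Map9 and Sh3d19 to 0.27 for 5033406O09Rik and Clba1. None of the 47 lay on the X, Y or mitochondrial chromosome or within 20 Mb of Sirt6 or Lyz2.

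The libraries at 20 and 60 share no sample with those at 0. Those of the same number and genotype may, however, come from the same animal. The calls at each level also rest on 1 shared estimate of the spread. Calls at 20 and 60 are thus no independent repeat of those at 0. Of the 47 genes, 29 were also called at 20, where 0.21% of all tested genes were called, 33 at 60, where 0.268% were called, and 26 at both. The sign was that of level 0 in 46 at 20 and in all 47 at 60, and 11 genes were called at neither level. The difference between the genotype effect at 20 or 60 and that at 0 was called for 0 of the 17159 genes by edgeR. An unadjusted p under 0.05 was reached by 0.396% of genes for level 20 and 1.1% for level 60. The fit did not link libraries of the same number and genotype across levels. The 0 calls therefore do not show that the genotype effect was the same at each level.

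Tagap1, which may share reads with its paralog Tagap, was the exception in sign. It had 7.48, 8.15 and 10.03 CPM in KO, against 72.8, 48.3 and 41.0 CPM in WT at level 0. At 20 it had 45.8, 81.3 and 71.3 CPM in KO, against 49.1, 83.9 and 51.4 CPM in WT, and at 60 it had 24.8, 23.4 and 31.7 CPM in KO, against 44.3, 34.5 and 28.8 CPM in WT. The groups were apart at 0 and overlapped at 20 and 60, with log2 fold changes of −2.66 at 0, 0.10 at 20 and −0.43 at 60. The difference between 20 and 0 had an edgeR adjusted p of 0.063, and passed with DESeq2 (adjusted p = 1.16e-06), with no filter on low counts (0.0344) and with a filter of 1 CPM in 3 libraries (0.0493). Add2, in contrast, had 2.94, 4.23 and 6.38 CPM in KO, against 112, 248 and 116 CPM in WT at 20 and 4.83, 4.28 and 8.07 CPM in KO, against 149, 198 and 165 CPM in WT at 60. Col6a3 had 201, 73.0 and 60.2 CPM in KO, against 0.808, 2.59 and 1.34 CPM in WT at 20 and 235, 109.6 and 40.6 CPM in KO, against 1.69, 1.17 and 1.21 CPM in WT at 60, so the order of the 3 KO libraries at 0, with number 4120 highest and number 6110 lowest, was found again at both levels.

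**Figure D4:**
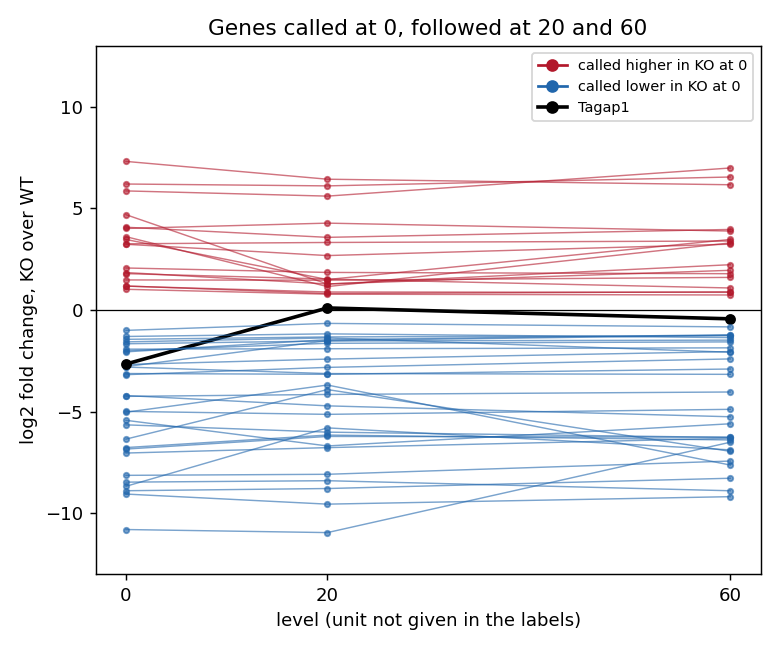
Log2 fold change of KO over WT (vertical axis) at levels 0, 20 and 60 (horizontal axis) of the 47 genes called at 0; red lines are genes called higher, blue lines genes called lower and the black line is Tagap1. The lines keep their side of 0 except that of Tagap1, which lies at −2.66 at 0, 0.10 at 20 and −0.43 at 60.

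After the median log2 fold change of each gene list, the range is that of the median in the 6 fits that leave out 1 library. In 24 of 41 lists this median changed sign in at least 1 of the 6, in 5 lists without the KO library of number 4120 and in 7 to 9 lists without each of the other 5, so the direction of these lists rested on individual libraries. As only 0.274% of all tested genes were called, 0 calls do not set a list apart. Genes that define mast cells were measured at high levels in both genotypes and none was called. Of the mast cell list, 10 of the 13 tested genes were positive and 3 negative on the log2 scale (median 0.12, range 0.09 to 0.25). Kit, the receptor for stem cell factor, lay above WT in every KO library (0.87 ± 0.28 SE, edgeR adjusted p = 0.286). The receptor subunits overlapped between the groups: Fcer1a, which binds IgE, had 1884, 3028 and 2800.1 CPM in KO, against 1142, 1268 and 2861 CPM in WT (0.55), Ms4a2, the beta subunit that amplifies the signal, had 1357, 1159 and 1608 CPM in KO, against 1209, 1465 and 1315 CPM in WT (0.05), and Fcer1g, the gamma subunit, had 389, 433 and 269.8 CPM in KO, against 298, 376 and 881 CPM in WT (−0.51). Adjusted p for these 3 was 0.558, 0.949 and 0.664 in edgeR, and the negative value of Fcer1g rested on the WT library of number 6110, without which it was 0.12. Of the granule proteases, 7 of the 16 tested genes were positive and 9 negative on the log2 scale (median −0.09, range −0.32 to 0.36). Cma1, a chymase, had 6225, 12150.5 and 11356 CPM in KO, against 3863, 4486 and 10927 CPM in WT (0.63), and Tpsg1, a tryptase, had 11.4, 7.82 and 9.84 CPM in KO, against 5.04, 184 and 321 CPM in WT, so that 2 WT libraries were high and the third was below every KO library (−4.13, edgeR adjusted p = 0.296).

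Of the IgE receptor and its kinases, 4 of the 10 tested genes were positive and 6 negative on the log2 scale (median −0.13, range −0.21 to 0.02), among them Syk, the kinase that starts the cascade, at −0.30. Of the adaptors and lipases below them, 11 of the 18 tested genes were positive and 7 negative on the log2 scale (median 0.08, range 0.02 to 0.21), and Dok1, an inhibitory adaptor, had 64.4, 53.2 and 52.8 CPM in KO, against 36.7, 26.1 and 51.3 CPM in WT (0.58, edgeR adjusted p = 0.407). Among inhibitory receptors and phosphatases Clec12b was the called gene (1 of 17, or 1 lower and 0 higher). Ptprc, the phosphatase CD45, had 184, 204 and 334 CPM in KO, against 119.6, 223 and 145 CPM in WT (0.56, edgeR adjusted p = 0.444). In the genes of calcium entry and release 0 of 15 were called, and Itpr2, a channel that releases stored calcium, had 124, 178 and 122 CPM in KO, against 1064, 505 and 209.7 CPM in WT, where the KO libraries were all lower and the WT libraries ranged over a wide span (−2.07, edgeR adjusted p = 0.199; −1.32 without the WT library of number 4120). Of the degranulation SNAREs and Rabs, 16 of the 20 tested genes were positive and 4 negative on the log2 scale (median 0.28, range 0.17 to 0.36). Rab27b, a GTPase of granule docking, had 361, 461 and 387 CPM in KO, against 282, 311 and 291 CPM in WT (0.45), and Unc13d, a priming factor, had 329, 301 and 279 CPM in KO, against 432, 397 and 381 CPM in WT (−0.41), both with groups apart and edgeR adjusted p of 0.349 and 0.348. Orai2, a calcium entry channel, had a log2 fold change of −0.54 and Ltc4s, the leukotriene C4 synthase, of −0.60.

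Among receptors for growth factors, cytokines and microbial products, 15 of 20 tested genes had positive log2 fold changes (median 0.16, range 0.09 to 0.35) and 0 were called. Tlr2, a receptor for bacterial lipoproteins, had 0.5997, 1.37 and 0.597 CPM in KO, against 3.81, 3.22 and 3.79 CPM in WT (−2.09 ± 0.46 SE, edgeR adjusted p = 0.0817), and Csf2ra, the GM-CSF receptor alpha chain, had 34.98, 26.8 and 22.9 CPM in KO, against 59.4, 51.7 and 42.04 CPM in WT (−0.85, edgeR adjusted p = 0.277). Both were below WT in every KO library. Of the lineage transcription factors, 13 of the 18 tested genes were positive and 5 negative on the log2 scale (median 0.13, range −0.05 to 0.18), with 0.48 for Erg and 0.44 for Ikzf1. Of the cytokines and chemokines, 8 had positive and 12 negative values among 22 tested, (median −0.16, range −0.20 to 0); Tnf had 3.11, 1.87 and 3.63 CPM in KO, against 4.37, 4.26 and 10.7 CPM in WT (−1.17, edgeR adjusted p = 0.419) and the chemokine gene Ccl9 had 1.35 on the log2 scale. Of the immediate early genes, 8 of the 25 tested genes were positive and 17 negative on the log2 scale (median −0.25, range −0.48 to 0.10). Fos, a subunit of AP-1, had 11.5, 9.19 and 7.64 CPM in KO, against 15.1, 12.5 and 20.1 CPM in WT (−0.75), with the groups apart and an edgeR adjusted p of 0.383. In each of these lists 0 genes were called.

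In the lists chosen for fields in which SIRT6 is known, 0 members were called, where 0.274% of all tested genes were. Lists of this size can hold 0 calls at that share, so the count does not set them apart. Fancl, a called DNA repair gene, is in none of these lists. Of the 7 sirtuins, 3 of the 7 tested genes were positive and 4 negative on the log2 scale (median −0.18, range −0.24 to −0.03), with 0.39 for Sirt1 and −0.32 for Sirt3. Of the glycolysis and HIF1A linked genes, 22 of the 25 tested genes were positive and 3 negative on the log2 scale (median 0.38, range 0.04 to 0.87). Hif1a, the oxygen-regulated factor itself, had 14.4, 19.1 and 28.2 CPM in KO, against 14.6, 12.8 and 13.4 CPM in WT (0.60, edgeR adjusted p = 0.395), and Bnip3, a mitophagy receptor induced by HIF1A, had 141, 273 and 256 CPM in KO, against 72.6, 96.1 and 167 CPM in WT (0.995, edgeR adjusted p = 0.304). Of the genes for cholesterol and fatty acid synthesis, 29 of the 32 tested genes were positive and 3 negative on the log2 scale (median 0.44, range 0.35 to 0.58). In 7 of these 32 every KO library lay above every WT library, and in 1 of the 25 glycolysis and HIF1A linked genes. The share among all tested genes was 5.94%. Hsd17b7, an enzyme of cholesterol synthesis, had 2.80, 2.37 and 1.93 CPM in KO, against 0.492, 0.604 and 0.532 CPM in WT (2.11 ± 0.42 SE, edgeR adjusted p = 0.0526), and Stard4, a sterol carrier, had 25.99, 29.3 and 34.99 CPM in KO, against 14.9, 11.7 and 17.2 CPM in WT (1.04 ± 0.21 SE, edgeR adjusted p = 0.0592). Both came near the threshold without passing it.

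The NF-kB list had a median of 0.12, range −0.02 to 0.23 (11 of 20 positive), with Nfkb2, the p100 subunit, at −0.59 and Cflar, an inhibitor of caspase activation, at −0.36. Of the genes that repair DNA breaks, 9 of the 25 tested genes were positive and 16 negative on the log2 scale (median −0.06, range −0.27 to 0.05). Atr, a checkpoint kinase, had 41.0, 31.3 and 28.2 CPM in KO, against 74.1, 55.6 and 36.8 CPM in WT (−0.73, edgeR adjusted p = 0.331), and Parp1, which SIRT6 is known to modify, had 27.7, 22.8 and 33.4 CPM in KO, against 15.9, 21.05 and 25.98 CPM in WT (0.41, edgeR adjusted p = 0.424). Of the insulin and IGF signalling genes, 12 of the 20 tested genes were positive and 8 negative on the log2 scale (median 0.10, range −0.03 to 0.15), with 0.40 for Rictor, a subunit of mTORC2, and −0.41 for Tsc2, a brake on mTORC1. In each of these lists 0 genes were called.

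Of 52 tested nuclear genes of the respiratory chain, 34 were positive on the log2 scale (median 0.07, range −0.05 to 0.41), and 0 were called. The single genes lay between −0.45 and 0.61, and the median was negative without the WT library of number 4120 (−0.03) or 414 (−0.05). The difference from the mitochondrially encoded genes was not tested. Uqcrfs1, the Rieske subunit of complex III, had 39.3, 47.7 and 53.1 CPM in KO, against 27.5, 21.3 and 43.3 CPM in WT (0.61, edgeR adjusted p = 0.369), and its libraries overlapped between the groups. Of the genes for mitochondrial transcription and biogenesis, 7 of the 18 tested genes were positive and 11 negative on the log2 scale (median −0.06, range −0.16 to 0.04), with −0.57 for Tfb1m, which modifies mitochondrial ribosomal RNA, and −0.37 for the protease gene Lonp1. Cytosolic ribosomal protein genes had 57 of 74 positive (median 0.20, range −0.03 to 0.68). Rpl29 stood out with 21.99, 893 and 199 CPM in KO, against 17.5, 13.2 and 32.5 CPM in WT (4.14 ± 1.28 SE, edgeR adjusted p = 0.278), where KO of number 414 was far above all others and KO of number 4120 lay within the WT range. Rpl35a had 47.3, 81.8 and 63.1 CPM in KO, against 102, 89.5 and 119 CPM in WT (−0.69, edgeR adjusted p = 0.360).

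Of the interferon induced genes, 13 of the 27 tested genes were positive and 14 negative on the log2 scale (median −0.01, range −0.11 to 0.01), and Gbp2b was the called gene (0 higher, 1 lower). The antigen processing genes Tap2, a peptide transporter, and Erap1, a peptide trimming enzyme, had 525, 414 and 445 CPM in KO, against 807, 609 and 739 CPM in WT for Tap2 (−0.64, edgeR adjusted p = 0.280) and a log2 fold change of 0.63 for Erap1. Of the cell cycle genes, 14 of the 28 tested genes were positive and 14 negative on the log2 scale (median −0.0022, range −0.37 to 0.32). Foxm1, a factor for mitotic genes, had 12.4, 10.7 and 13.3 CPM in KO, against 31.2, 27.9 and 22.5 CPM in WT (−1.16 ± 0.24 SE, edgeR adjusted p = 0.0641), and Ccnd2, cyclin D2, had 0.78 on the log2 scale. Of the BCL2 family, 9 of the 15 tested genes were positive and 6 negative on the log2 scale (median 0.10, range 0.02 to 0.33). Bax, which opens the outer mitochondrial membrane in apoptosis, had 181, 149 and 99.7 CPM in KO, against 339, 230.5 and 241 CPM in WT (−0.91, edgeR adjusted p = 0.190), and Bbc3, its activator PUMA, had −0.60. Foxm1, Bax and Tap2 were below WT in every KO library and did not pass the test. The oxidative stress response (median 0.18, range 0.10 to 0.27) held Cat, catalase, at 0.52. Heat shock chaperones (median 0.25, range 0.08 to 0.50) were listed with Hsf1, their transcription factor, at −0.51. The integrated stress response (median −0.05, range −0.17 to 0.27) held Shmt2 at −0.49 and Vldlr at 1.16. In these 3 lists 0 genes were called, as in the lists of antigen processing, cell cycle and the BCL2 family.

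**Figure D5:**
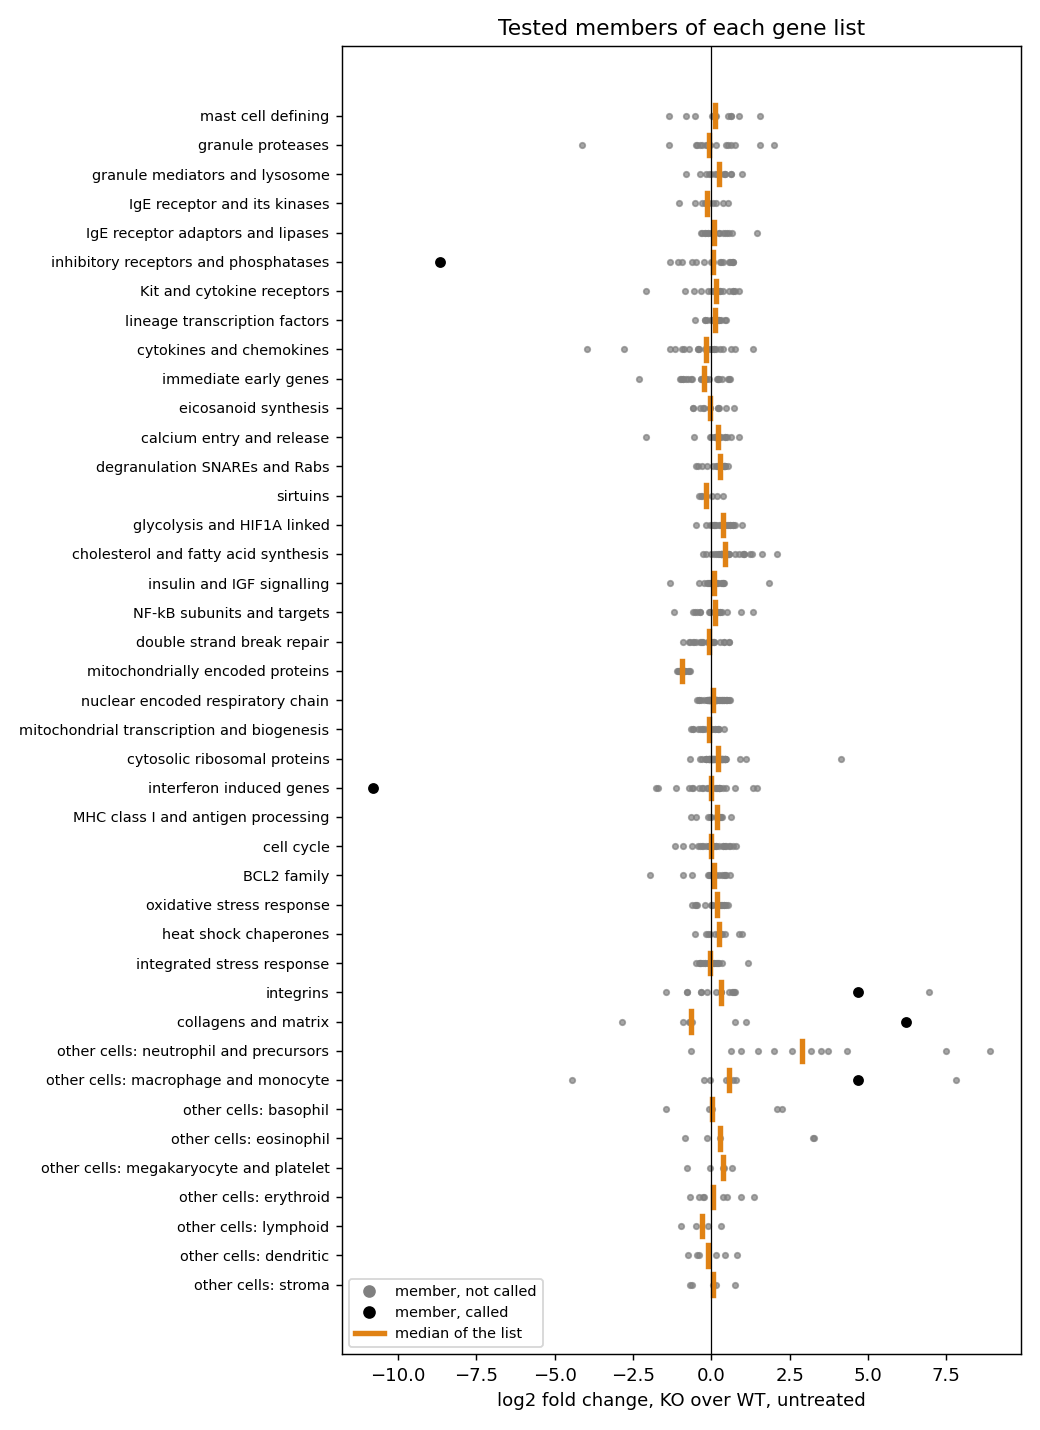
Log2 fold change of KO over WT in untreated cells (horizontal axis) for the tested members of each gene list (vertical axis); grey points are members that were not called, black points called members, and orange bars the median of the list. The median of the mitochondrially encoded proteins is −0.93, that of cholesterol and fatty acid synthesis 0.44 and that of neutrophil markers 2.88, and Clec12b, Gbp2b, Itgam and Col6a3 are the called members.

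Markers of other cells that marrow culture can hold were mostly low. Of 16 neutrophil and precursor markers 12 were tested, 11 of them positive (median 2.88, range 1.70 to 3.67), and 0 were called. Their summed level was 52.5, 25.2 and 11.1 CPM in KO, against 10.1, 6.38 and 4.63 CPM in WT, and 5 of the 16 had no count in any WT library. Lcn2, a granule protein, had 0.857, 0.582 and 0.344 CPM in KO, against 0, 0.0671 and 0 CPM in WT, and Ly6g, which marks neutrophils, had 0.742, 5.07 and 0.184 CPM in KO, against 0, 0 and 0 CPM in WT. Markers so low in WT pass the expression filter through their KO counts, so the direction of those tested is no support for a rise. For macrophages and monocytes 9 of 16 markers were tested, 6 positive and 3 negative, with a median of 0.55, range 0.36 to 0.81. Their summed level was 203, 309.5 and 299 CPM in KO, against 117, 143 and 273 CPM in WT. Itgam was called higher (1 of 9), but with 3 counts in WT the same limit of the filter applies to it. Lyz2, also of this list, had its lowest log2 fold change, −4.44, and was not called. The summed levels overlapped between the genotypes for macrophages and did not for neutrophils, and their part in the differences above was not tested.

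Of the basophil markers all 5 were tested and 0 called, with a summed level of 341, 213 and 302 CPM in KO, against 394, 229 and 220.0 CPM in WT. Mcpt8, a basophil protease, had 5.54, 16.7 and 1.68 CPM in KO, against 2.64, 0.403 and 2.54 CPM in WT (2.103), and Prss34 had 2.25 on the log2 scale. These 2 were not typical of the list, which had 3 positive and 2 negative values, the lowest −1.45. Its median was 0.02 (range −0.01 to 0.87 with 1 library left out). For eosinophils 5 of 9 were tested, with a summed level of 6.996, 11.1 and 4.80 CPM in KO, against 5.41, 3.42 and 7.67 CPM in WT and Prg2, the major basic protein, at 3.27. Prg2 was the highest of 3 positive and 2 negative values, with a median of 0.28 and a lowest value of −0.85. The summed level was 382, 426 and 868 CPM in KO, against 296, 300.2 and 726 CPM in WT for megakaryocytes and platelets, 38.5, 42.8 and 47.4 CPM in KO, against 26.4, 41.0 and 41.6 CPM in WT for erythroid cells and 9.42, 3.87 and 1.95 CPM in KO, against 6.70, 17.8 and 2.60 CPM in WT for lymphoid cells. It was 14.6, 13.8 and 16.4 CPM in KO, against 7.87, 11.4 and 13.1 CPM in WT for dendritic cells and 313, 530.0 and 622 CPM in KO, against 110.5, 169 and 592 CPM in WT for stroma. The lists of integrins and of collagens and matrix held 1 called gene each, Itgam among 16 tested integrins and Col6a3 among 8 tested matrix genes of 16. From basophils to stroma 0 genes of these 7 lists were called. The summed levels overlapped between the genotypes in 6 of them, and those of the dendritic markers lay higher in every KO library. Single dendritic markers did not share that direction, with 3 positive and 3 negative log2 fold changes among the 6 tested. Their median was −0.12 (range −0.43 to 0.33 with 1 library left out), and in 0 of the 6 did every KO library lie above every WT library.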

How the data were processed

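RNA-seq counts of the 6 untreated libraries were analysed within the table of 18 libraries. Per the submitters' processing notes, bcl2fastq 2.20.0, FastQC 0.11.7, HISAT2 2.1.0 with mm10 and StringTie 2.1.3b were used, with roles and settings not given. The authors deposited, per the file headers, a read count, an FPKM and a TPM for each of 45777 genes and each library; the counts were analysed, and TPM and FPKM were used in alternatives. Counting by gene can split reads between near-identical copies, and no strand is given.

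In edgeR 4.0.16 (R 4.3.3), filterByExpr kept 17159 genes, counts were scaled with TMM, and the quasi-likelihood test was run on a fit of all 18 libraries that gives each group its own mean, with Benjamini-Hochberg adjustment over all genes. The call threshold was 0.05. CPM use TMM-scaled library sizes, and bounds against 0 counts use 3 counts over the group, which covers counting error only. Sirt6, Lyz2 (log2(CPM + 0.1)) and the mitochondrial share were tested by exact permutation. Positions, biotypes and promoters are RefSeq's for GRCm38, in which 99.8% of gene IDs were found. No library was a copy of another of its group. Figures were drawn with matplotlib 3.10.9, and limma 3.58.1 and DESeq2 1.42.0 served alternatives.

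The comparison, members, gene lists and alternatives were chosen with earlier results of these data known. All called genes are named, the 12 largest rises and 12 largest falls of at least 5 CPM by library; of lists, called members or up to 4 with the highest level or smallest p; other names are said to be chosen after their values were seen. A gene that this rule names is not reported here.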

Additional observations from a re-analysis of the deposited data

How the results depend on the processing

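edgeR's 47 calls (17 higher, 30 lower) became 19 (2 higher, 17 lower) in a fit of the 6 untreated libraries alone, 244 (87 higher, 157 lower) with DESeq2, and 24 (6 higher, 18 lower) at an adjusted p under 0.01. With the replicate number as a block there were 208 calls (92 higher, 116 lower) over 18 libraries and 18 calls (3 higher, 15 lower) over 6. Same-numbered KO and WT libraries deviated together at correlations of 0.27 for number 4120, −0.018 for 414 and 0.43 for 6110. Of the KO libraries, 2 of 3 correlated best with their own number. These correlations do not decide whether the numbers are pairs. The numbers were not taken as pairs because no label says what a number stands for. DESeq2 and the block over 18 libraries each called all 47 genes. Calls ran from 27 to 46 with 1 library left out (8 to 17 higher, 18 to 30 lower) and from 20 to 38 with 1 number left out (3 to 20 higher, 17 to 22 lower). RLE factors, library size alone, other filters, no mitochondrial genes, the mitochondrial share as covariate, limma-voom and TPM gave 40 to 64 calls. Library size alone moved the median of all genes to 0.16, TPM + 0.1 to 0.27 and TPM + 1 to 0.18. The genotype difference in response, called for 0 genes, was called at 20 for 1 gene, Tagap1, with no filter, with 1 CPM in 3 libraries and with DESeq2, and at 60 for 2, Tagap1 and Got1, with DESeq2. Lyz2 (−4.44) passed with the block over 18 libraries (−4.37), DESeq2 (−4.48), TPM + 0.1 (−3.73) and TPM + 1 (−1.74), and ran from −6.09 to −3.74 with a library or number left out. The log2 mitochondrial share ran from −1.69 to −0.25 with libraries left out, was −0.83 on TPM or FPKM, and had p = 0.5 over differences within numbers (sign-flip permutation, smallest possible p 0.25). Sirt6 ran from −0.015 to 0.35, negative without number 4120. Fcer1g ran from −0.84 to 0.29 and Ms4a2 from −0.084 to 0.25. With a library or number left out, mitochondrial genes ran from −2.15 to 0.27 for ATP6, −2.33 to 0.48 for ATP8, −2.29 to 0.35 for COX1, −2.24 to 0.28 for COX2, −2.33 to 0.14 for COX3, −2.44 to 0.16 for CYTB, −2.39 to 0.28 for ND1, −2.45 to 0.055 for ND2, −2.37 to 0.038 for ND3, −2.42 to 0.23 for ND4, −2.41 to 0.12 for ND4L, −2.36 to 0.29 for ND5, −2.27 to 0.29 for ND6, −2.13 to 0.82 for mt-Rnr1 and −2.27 to 0.60 for mt-Rnr2. With the mitochondrial share as covariate ATP8 was 0.042, COX1 0.039, mt-Rnr1 0.42, mt-Rnr2 0.20 and Ms4a2 −0.088. The cause of these changes was not tested. Over the single genes named, 2421 recomputed values kept their sign and their side of the threshold, 320 lost and 37 gained a call, and 33 changed sign. Where a gene had no count in a group, depth allowed only a bound.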

Other observations

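Of the genes for granule mediators and lysosomes, 10 of the 14 tested genes were positive and 4 negative on the log2 scale (median 0.24, range −0.03 to 0.42). Of the genes for prostaglandin and leukotriene synthesis, 5 of the 12 tested genes were positive and 7 negative on the log2 scale (median −0.03, range −0.21 to 0.14). Of the genes for MHC class I and antigen processing, 7 of the 12 tested genes were positive and 5 negative on the log2 scale (median 0.19, range −0.03 to 0.42). Of the genes for calcium entry and release, 11 of the 15 tested genes were positive and 4 negative on the log2 scale (median 0.20, range 0.06 to 0.36). The ranges are those of the median with 1 library left out. In these 4 lists 0 genes were called, and the median of all tested genes was 0.0062.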
